A study of Mus musculus with 18 samples.

Results

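Inflammasomes are described here through 10 genes of mouse macrophages, which were chosen by name from the 24059 gene symbols of the count tables: the sensors Nlrp3, Mefv, Nlrc4, Naip2, Naip5 and Naip6, the adaptor Pycard, the caspases Casp1 and Casp4, and the pore-forming Gsdmd. All 10 symbols were present in both count tables. The rule is the symbol alone, and the symbols were chosen with earlier results of these data known.

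An inflammasome is a protein platform that a cell of the innate immune system assembles when a sensor detects microbial products or cell damage. The adaptor ASC, the product of Pycard, links most sensors to caspase-1, which cuts the precursors of interleukin-1β and interleukin-18 and also gasdermin D. The freed part of gasdermin D forms pores in the plasma membrane, and the cell can die by pyroptosis. In macrophages this system is armed in steps: a priming stimulus such as lipopolysaccharide (LPS, a cell wall component of Gram-negative bacteria) raises the messenger RNA of some components, and a second stimulus activates the proteins. Messenger RNA levels, which are what was measured here, do not show whether any inflammasome assembled.

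The cells were macrophages that C57BL/6J bone marrow gave rise to over 7 days in culture with L929-conditioned medium, and their RNA was sequenced. On day 8 some cultures received reconstituted high-density lipoprotein (rHDL, the preparation CSL111, made of APOA1 and soybean phosphatidylcholine) for 20 h, and some of these had first been loaded with cholesterol from POPC/cholesterol liposomes. The cells were then washed and given LPS, or none, at a dose and for a time not given in the sources used here. In all there were 6 groups of 3 libraries each. The first count table holds LPS only and no treatment. The second holds 4 groups that all received LPS: liposomes, HDL and LPS; HDL and LPS; liposomes and LPS; and LPS only. It is not stated whether the 3 libraries of a group came from separate mice or cultures, so p-values measure the spread between these libraries, which may be technical.

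Library depth ran from 11450243 to 16835472 counts (first table) and from 9464916 to 15607889 counts (second table). Of 10 macrophage markers, 8 passed the filter on low counts in each table and their summed level was at least 9845 CPM (counts scaled to a common library size) in every library. Adgre1 had no row, and Itgam, with 0.06% of its exon bases to itself, was at 0. Markers of lymphocytes summed to at most 0.51 CPM, of mast, erythroid and megakaryocyte cells to at most 3.06 CPM, of stromal cells to at most 13.6 CPM, and of dendritic cells to 70.6 to 739 CPM. In bulk RNA, fewer cells of a type and less RNA per cell cannot be told apart.

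How much of each gene could be counted differed sharply among the 10. The deposited tables have a row per annotated transcript, and 6697 of 6698 rows without an exon base of their own had 0 counts, so reads that touch more than 1 row were left out. Nlrp3, Nlrc4, Pycard, Casp1, Casp4, Gsdmd and Naip5 had 100% of their exon bases to themselves. Naip6 shares 4707 of its exon bases with the listed transcript of Naip7 and kept 29.8% (1998 of 6705), of which 1994 lie at the 3′ end of the gene. Mefv kept 5.70% (187 of 3281) and Naip2 kept 1.46% (71 of 4853). The counting took no account of strand, since 98 rows would have bases of their own only if strand were used and 0 of these had counts.

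**Figure D1:**
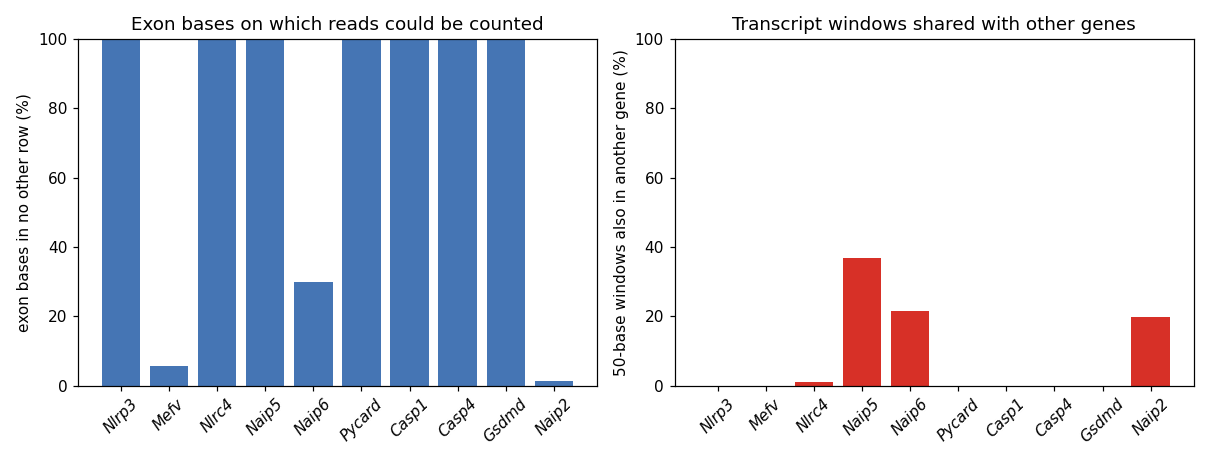
Left, the share of each gene's exon bases (percent) that no other row covers, and right, the share of 50-base windows of its transcript (percent) that also occur in a transcript of another gene. Mefv (5.70%), Naip6 (29.8%) and Naip2 (1.46%) are counted on a part of their exons, and Naip5 shares the most windows (36.8%).

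The NAIP genes pose a further limit, because they are near copies of one another. NAIP proteins bind bacterial ligands in the cytosol (in the mouse, flagellin for NAIP5 and NAIP6, and the rod protein of type III secretion for NAIP2) and pass the signal to NLRC4. The 3 genes lie in a cluster on the minus strand of mm10 chromosome 13, Naip2 at chr13:100144063-100202122, Naip5 at chr13:100211740-100247336 and Naip6 at chr13:100281121-100316616. Their coding sequences were 96.96% identical between Naip5 and Naip6, 89.99% between Naip2 and Naip5, and 89.68% between Naip2 and Naip6. The first 90 coding bases, shown because they let the likeness be seen base by base, are those of the GENCODE M21 transcripts, read 5′ to 3′, with capitals where a base differs from Naip5 (6 bases in Naip6 and 26 in Naip2).
Naip5: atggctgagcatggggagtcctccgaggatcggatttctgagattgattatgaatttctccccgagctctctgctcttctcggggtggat
Naip6: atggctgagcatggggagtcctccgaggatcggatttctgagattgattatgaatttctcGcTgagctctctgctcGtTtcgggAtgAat
Naip2: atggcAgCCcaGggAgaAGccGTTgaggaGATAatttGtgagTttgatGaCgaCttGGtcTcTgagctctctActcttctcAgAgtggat
Of all 50-base windows in the transcript, 36.8% of Naip5, 21.7% of Naip6 and 19.9% of Naip2 also occurred in another gene, mostly another Naip. The sources used here do not give the treatment of reads with several matches, so the Naip5 and Naip6 values below are uncertain as to which copy they belong to. Of the other members, Nlrc4 shared 1.13% of its windows and Nlrp3, Mefv, Pycard, Casp1, Casp4 and Gsdmd shared 0.

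For Mefv, which encodes the sensor pyrin, the counted bases are so few that they can be printed whole. They lie in coding exons on the minus strand of mm10, 32 bases used by transcript Mefv-201 at chr16:3708196-3708227, and 65 bases at chr16:3708033-3708097 and 90 bases at chr16:3715193-3715282 used by Mefv-202.
Mefv-201, 32 bases: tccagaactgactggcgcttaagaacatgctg
Mefv-202, 65 bases: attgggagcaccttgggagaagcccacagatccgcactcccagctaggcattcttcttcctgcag
Mefv-202, 90 bases: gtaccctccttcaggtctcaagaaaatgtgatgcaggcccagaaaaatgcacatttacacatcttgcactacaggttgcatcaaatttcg
All Mefv values in this section come from reads that were assigned through these stretches and touched no base of the other Mefv rows. A read longer than 32 bases that was spliced from the Mefv-201 stretch into a shared exon would have been left out. The Mefv values may therefore not stand for the level of its spliced messenger RNA. Whether the counted reads came from spliced or unspliced RNA was not tested.

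Levels can be compared between genes only per length, here as mean CPM per kilobase of a gene's own exon bases. In the 4 groups of the second table the order of the means was the same from top to bottom: Casp1, Nlrp3, Casp4, Gsdmd, Pycard, Mefv, Naip5, Naip6 and Nlrc4. In LPS only cells of that table these levels were 444 for Casp1, 323 for Nlrp3, 234 for Casp4, 161 for Gsdmd, 31.6 for Pycard, 16.6 for Mefv, 7.35 for Naip5, 6.69 for Naip6 and 3.62 for Nlrc4. Naip5 and Naip6 did not differ beyond their spread there, and the other neighbours in the order did. In HDL and LPS cells Mefv (4.90) and Naip5 (4.31) did not differ beyond their spread. The place of Mefv is uncertain in every group. Its level rests on few bases, where only reads touching no shared base were counted. Untreated cells had another order, in which Casp1 (92.0), Gsdmd (59.1), Nlrp3 (31.9), Casp4 (28.2) and Pycard (25.3) stood above Naip5 (5.38), Naip6 (5.08), Nlrc4 (4.94) and Mefv (1.32). The last 3 sensors ahead of Mefv, Naip5, Naip6 and Nlrc4, lay within each other's spread there. Naip2 stood last, with 3 counts in LPS only cells and 1 in untreated cells of the first table and 0 in the second, on 71 countable bases, so its level was not measurable at this depth.

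**Figure D2:**
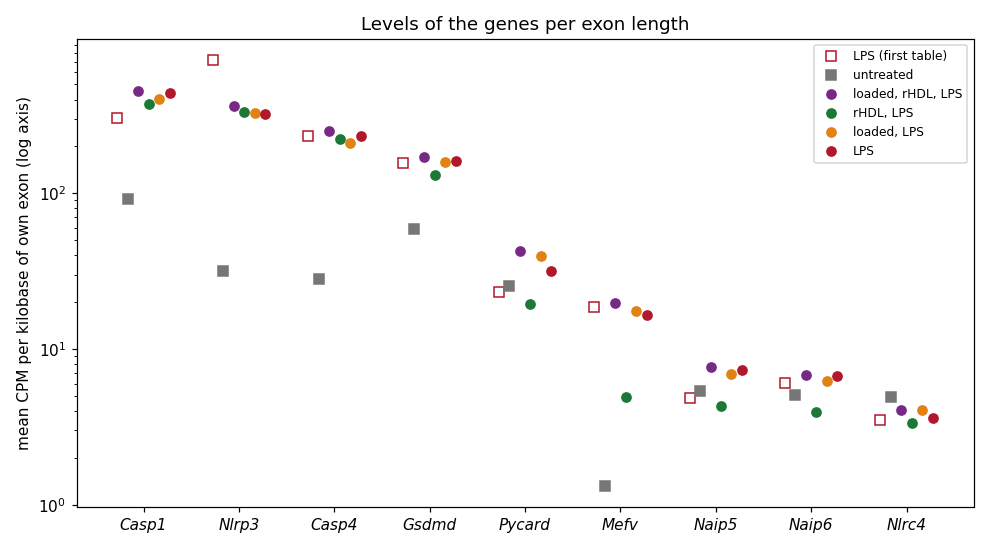
Mean level in CPM per kilobase of own exon (log axis) of 9 genes in the 6 groups, squares for the first table and circles for the second, n = 3 libraries a point. Casp1, Nlrp3, Casp4 and Gsdmd lie above Pycard, and Naip5, Naip6 and Nlrc4 lie lowest in all groups given LPS, while Mefv is lowest in untreated cells (1.32). The place of Mefv rests on few countable bases and is uncertain.

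LPS only was set against no treatment to show the response of these genes to LPS. Nlrp3, Casp4, Casp1 and Gsdmd rose, Nlrc4 fell, and Naip5, Naip6 and Pycard did not pass the test (edgeR's quasi-likelihood test, Benjamini-Hochberg adjusted p under 0.05 over all genes tested). The members stood against a background in which 72.9% of 9576 tested genes were called, 35.3% higher and 37.6% lower, and in which LPS and untreated libraries did not overlap for 76.1%. Mefv passed the filter on low counts only through its LPS libraries, with 0 of 3 untreated libraries at the filter's level (0.639 CPM by library totals, and 0.862 CPM in the second table), so it had to differ if it was tested at all and is left out of the count. Of the other 8 tested members 4 were called higher and 1 lower. In either direction this is no more than the background. By direction the share called higher was above the background and the share called lower below it, on only 8 genes. Their median log2 difference was 0.83, with members on both sides of 0, and that of all genes tested was -0.05.

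The priming sensor Nlrp3 (chr11:59542686-59566956) detects potassium loss and other signs of membrane damage, and its product is held to be limiting in resting macrophages. Nlrp3 had 3026, 2707 and 2909 CPM in LPS only libraries, against 123, 119.6 and 143 CPM in untreated libraries. Every LPS library was far above every untreated one, a 22.4-fold rise and a log2 difference of 4.49 ± 0.10 (SE, n = 3 each; adjusted p = 5.22e-11). Mefv had 5.13, 2.62 and 2.69 CPM in LPS only libraries, against 0.371, 0.233 and 0.136 CPM in untreated libraries. That is 125 counts against 15 in all, a log2 difference of 3.71 ± 0.42 given as a description, with 1 LPS library well above the other two. Neutrophil markers, which matter here since neutrophils express Mefv, summed to 82.2 to 89.1 CPM in LPS only libraries and 85.2 to 104 CPM in untreated libraries, nearly all of it Mmp8, and S100a9, Elane and Retnlg were at 0 in both groups. Of the lower ones S100a8 rose, at 4.15 ± 0.82 CPM with LPS and 1.51 ± 0.06 CPM without (SD, n = 3; log2 difference 1.46 ± 0.21, adjusted p = 9.74e-05). Ltf averaged 0.858 CPM with LPS and 0.200 CPM without, and Camp 0.491 CPM with LPS and 0.0844 CPM without. Their part in the level of Mefv was not tested.

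The flagellin branch moved little. Nlrc4 (chr17:74426295-74459108), whose product joins NAIP proteins and caspase-1, had 15.7, 11.4 and 13.3 CPM in LPS only libraries, against 21.5, 18.04 and 17.3 CPM in untreated libraries. The groups did not overlap and Nlrc4 fell by 0.50 on the log2 scale (SE 0.13; adjusted p = 0.00621), a call lost with a minimum fold of 1.5 (adjusted p = 0.761). Naip5 had 26.7, 23.6 and 27.2 CPM with LPS, against 29.3, 26.0 and 30.2 CPM without, which overlap (log2 difference -0.14 ± 0.10, adjusted p = 0.211). Naip6 had 11.2, 12.1 and 12.9 CPM with LPS, against 10.8, 8.34 and 11.3 CPM without, which also overlap (log2 difference 0.25 ± 0.14, adjusted p = 0.118). The adaptor Pycard (chr7:127991373-127993867) likewise gave overlapping groups, with 39.6, 53.1 and 55.4 CPM with LPS, against 51.7, 53.9 and 56.7 CPM without (log2 difference -0.13 ± 0.12, adjusted p = 0.335).

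Both inflammatory caspases and the pore protein rose. Casp4, the mouse gene for caspase-11, binds LPS in the cytosol and cuts gasdermin D directly in the non-canonical pathway. It had 298, 335 and 363 CPM in LPS only libraries, against 41.7, 40.7 and 38.8 CPM in untreated libraries, an 8.21-fold rise (log2 difference 3.04 ± 0.09, adjusted p = 3.02e-10). Casp1, its neighbour on chromosome 9 (Casp1 at chr9:5298517-5307281 and Casp4 at chr9:5308860-5336791), had 421, 470.5 and 489 CPM with LPS, against 140.1, 141 and 137 CPM without. Its rise was 3.30-fold (log2 difference 1.72 ± 0.08, adjusted p = 6.87e-09). Gsdmd (chr15:75862339-75867404) had 257, 291 and 289.8 CPM with LPS, against 105, 104 and 106 CPM without, a 2.66-fold rise (log2 difference 1.41 ± 0.08, adjusted p = 2.56e-08). For each of the 3 genes the lowest LPS library was above the highest untreated one, in a comparison where 76.1% of genes had groups apart.

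These sizes depend on the scaling of libraries. With library totals in place of TMM, the trimmed-mean scaling used throughout, the median log2 difference of all genes moved to -0.77 and the called genes split into 1532 higher and 6640 lower, against 3380 higher and 3605 lower. Under that scaling Naip6 turned to -0.46 (adjusted p = 0.00846), and Naip5 at -0.86 (adjusted p = 8.78e-06) and Pycard at -0.85 (adjusted p = 2.44e-05) passed the test as lower. Nlrc4 moved to -1.21 (adjusted p = 8.36e-06), while Nlrp3, Casp4, Casp1 and Gsdmd stayed higher. Relative to the median of all genes, under TMM as under library totals, Naip6 lay at 0.31, Naip5 at -0.09, Pycard at -0.08 and Nlrc4 at -0.44.

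The promoter of Casp4 is shown because it was the sole member promoter with a match to the κB letters bound by NF-κB, the factor that LPS activates. RefSeq (GRCm38.p6) gave 9 of the 10 members a promoter, and the 250 bases before the start were searched on both strands for a form of the κB site (3 G, any 2 bases, 3 T, 2 C) and a form of the interferon-stimulated response element (3 T and a C, any 2 bases, 3 T and a C). The first was found in 1 member and in 1.41% of 32851 promoters of that length, and the second in 0 members and 2.98% of promoters. Casp4 held 2 matches that do not overlap, 104 and 25 bases before the start, in capitals below, on the plus strand at chr9:5308610-5308859.
Casp4: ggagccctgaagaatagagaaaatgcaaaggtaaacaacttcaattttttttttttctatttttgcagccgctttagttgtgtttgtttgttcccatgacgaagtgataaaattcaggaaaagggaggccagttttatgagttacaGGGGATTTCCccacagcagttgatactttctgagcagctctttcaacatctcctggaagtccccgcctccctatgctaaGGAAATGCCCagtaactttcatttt
For contrast the same window of Nlrp3, the member with the largest rise, is given on the plus strand at chr11:59542436-59542685, with no match in capitals.
Nlrp3: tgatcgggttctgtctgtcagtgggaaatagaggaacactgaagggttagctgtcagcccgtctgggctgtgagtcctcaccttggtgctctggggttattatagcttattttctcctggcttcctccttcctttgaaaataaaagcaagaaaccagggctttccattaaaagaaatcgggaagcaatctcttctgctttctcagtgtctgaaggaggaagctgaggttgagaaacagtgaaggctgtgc
A match is a string of letters and not a measured binding site, and the lack of one says only that these letters are not in the window.

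Partners of the inflammasome were taken from 6 lists of 52 genes in all. With LPS 72.9% of all genes were called, 35.3% higher and 37.6% lower. Of 5 tested cytokines and antagonists, 4 that reached the filter's level in all libraries rose with LPS, and Il1a, like Mefv, passed it only through its LPS libraries. Il1b, which encodes the interleukin-1β precursor cut by caspase-1, had 9954, 11512 and 10146 CPM in LPS only libraries, against 5.74, 7.18 and 16.7 CPM in untreated libraries (log2 difference 10.11 ± 0.38, adjusted p = 1.33e-09). Il18, whose product caspase-1 also cuts, had 52.4, 65.8 and 69.4 CPM with LPS, against 3.43, 4.66 and 4.08 CPM without (log2 difference 3.94 ± 0.15, adjusted p = 1.36e-09). Il1a averaged 3612 ± 193 CPM with LPS and 0.662 ± 0.689 CPM without (SD, n = 3). Both caspase-1 substrates thus stood above their untreated range in every LPS library.

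The other lists moved with LPS as follows, where 72.9% of all genes were called. Of 4 tested genes on the list of guanylate-binding proteins and Irgb10, 3 rose, and Gbp3 passed the filter only through its LPS libraries. Guanylate-binding proteins coat bacteria and help caspase-11 reach LPS. Gbp5 had 4621 ± 164 CPM with LPS and 19.3 ± 1.46 CPM without. Gm12250, the gene of Irgb10, which is not itself a guanylate-binding protein, had 771 ± 79.8 CPM and 21.5 ± 3.09 CPM in that order. Of 4 other sensors tested, Aim2, a sensor of cytosolic DNA, rose (log2 difference 2.44 ± 0.09, adjusted p = 1.2e-09), Nlrp1a and Nlrp10 fell, and Nlrp1b passed the filter only through its untreated libraries. Of 11 partners of NLRP3 and pyrin, 7 rose, among them Pkn2, a kinase of pyrin (1.36 ± 0.09), and 4 fell, among them Pstpip1, a pyrin-binding protein (-1.54 ± 0.09). Among cell death effectors Mlkl, the pore protein of necroptosis, rose (3.87 ± 0.11) and Dfna5, the gene of gasdermin E, fell. Of 2 tested inhibitors Trim30a rose by 3.74 ± 0.10. Cflar, counted on 10.96% of its exon bases, averaged 20.04 CPM with LPS and 0.492 CPM without and passed the filter only through its LPS libraries.

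**Figure D3:**
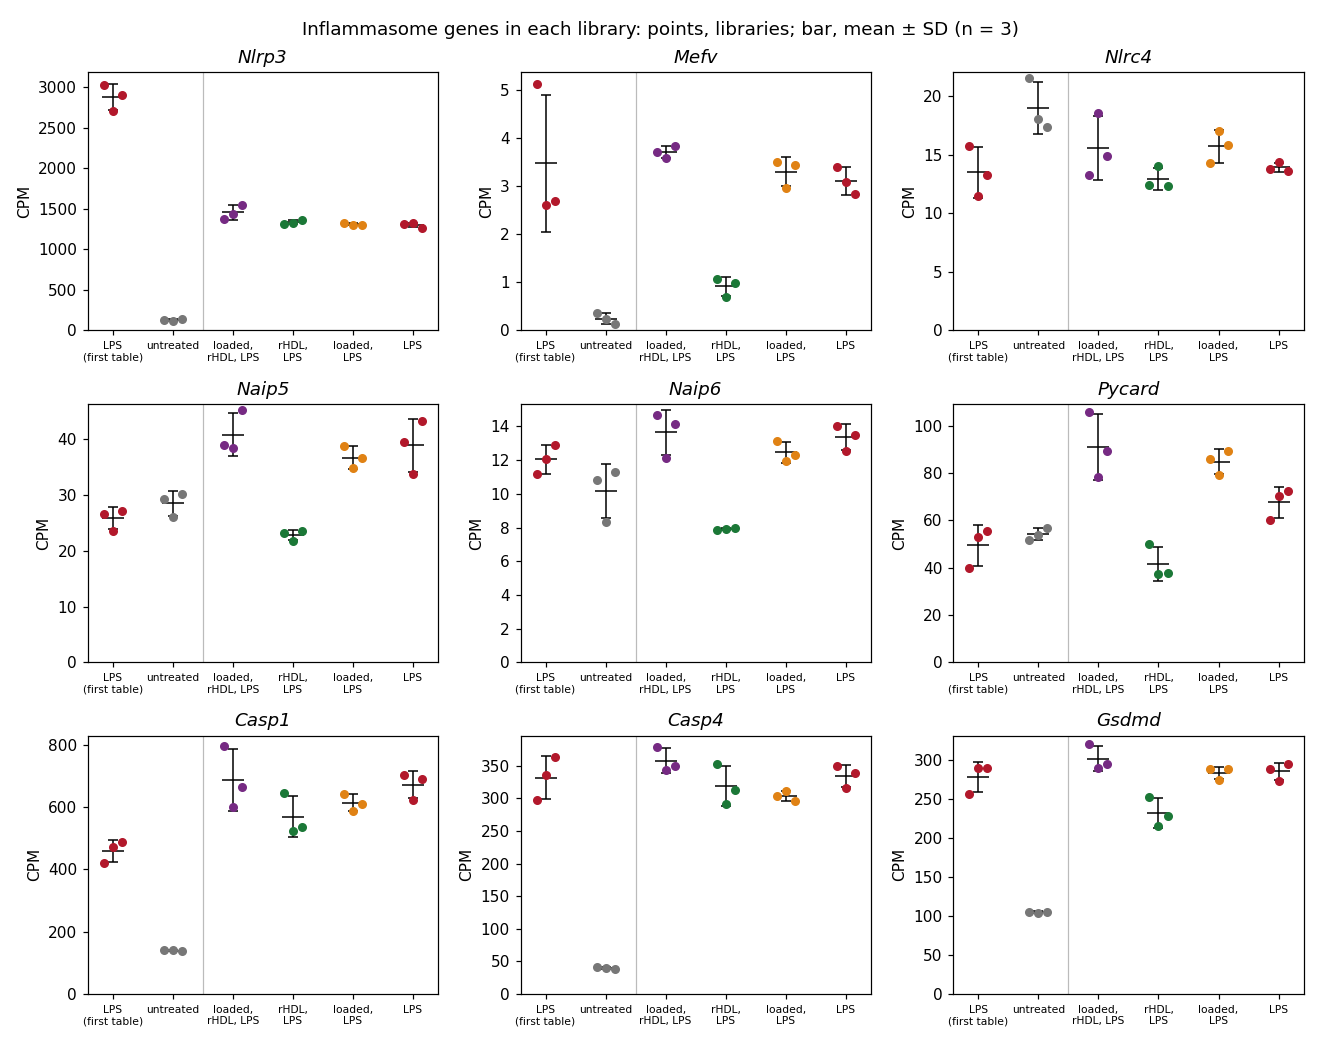
CPM of 9 genes in each library (points), with the mean and SD of the 3 libraries of a group (bars), on linear axes from 0; a vertical line parts the first table (left) from the second. In HDL and LPS cells Mefv (0.696 to 1.07 CPM), Naip5, Naip6, Pycard and Gsdmd lie below the other groups of the second table, and Nlrp3 does not.

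The LPS only groups of the 2 tables were not tested against each other, since a difference between them cannot be told apart from a difference between the tables, and CPM values are scaled within each table. Their levels are given side by side. Nlrp3 averaged 2881 ± 161 CPM in the first table and 1301 ± 28.8 CPM in the second (SD, n = 3 each). Casp4 averaged 332 ± 32.8 and 335 ± 16.9 CPM in that order, Gsdmd 279 ± 19.1 and 286 ± 10.7 CPM, and Casp1 460.0 ± 35.2 and 671 ± 44.0 CPM. The cytokine Il1b had 9954 to 11512 CPM in the first and 6213 to 6835 CPM in the second. By library totals Casp4 averaged 259 ± 20.3 CPM in the first table and 322 ± 7.22 CPM in the second, Gsdmd 217 ± 10.96 and 275 ± 7.80 CPM, and Nlrp3 2247 ± 157 and 1252 ± 50.7 CPM, so how near the tables lie depends on the scaling. Whether the LPS exposure was the same in both is not given in the sources used here.

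HDL and LPS was set against LPS only to ask how levels under LPS differed with rHDL before it. No group received rHDL without LPS. A changed response to LPS and a change already present before LPS therefore cannot be told apart. Mefv, Naip5, Naip6, Pycard and Gsdmd fell, and no member rose. Of 9 members tested 5 were called lower, whereas 36.5% of 8965 tested genes were called in either direction and 18.4% lower, and 51.4% had groups that did not overlap. The median log2 difference was -0.30 among the tested members and 0.03 among all genes tested. Mefv reached the filter's level in 2 of 3 HDL and LPS libraries and in every library of the other groups; without it 4 of 8 members were called lower, with a median of -0.27. With library totals alone the calls over all genes split into 2507 higher and 1273 lower, against 1621 higher and 1654 lower, and the median of all genes moved to 0.14. Under that scaling the same 5 members were called lower.

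Pyrin's gene Mefv gave the largest fall. It had 1.07, 0.696 and 0.978 CPM in HDL and LPS libraries, against 3.41, 3.09 and 2.83 CPM in LPS only libraries. The groups lay well apart, with a log2 difference of -1.75 ± 0.21 (SE, n = 3 each; adjusted p = 1.84e-05), or 0.298 of the LPS only level. The 32 bases of Mefv-201 shown above gave 3, 6 and 6 counts in HDL and LPS libraries, against 24, 18 and 12 counts in LPS only libraries. The 155 bases of Mefv-202 gave 14, 4 and 7 counts in HDL and LPS libraries, against 8, 16 and 14 counts in LPS only libraries, which overlap. The fall thus rested mainly on the 32 bases, and with those alone the log2 difference was -2.37 (adjusted p = 0.000152).

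The NAIP sensors fell by nearly the same size. Naip5 had 23.3, 21.7 and 23.5 CPM in HDL and LPS libraries, against 39.5, 33.9 and 43.4 CPM in LPS only libraries (log2 difference -0.77 ± 0.10, adjusted p = 3.07e-05). Naip6 had 7.84, 7.93 and 7.98 CPM in HDL and LPS libraries, against 14.05, 12.5 and 13.5 CPM in LPS only libraries (log2 difference -0.75 ± 0.11, adjusted p = 7.0e-05). Neither gene's groups overlapped, as for 51.4% of all genes, and because of the shared windows these are not independent measurements. Their partner Nlrc4 had 12.4, 13.99 and 12.3 CPM in HDL and LPS libraries, against 13.7, 14.3 and 13.6 CPM in LPS only libraries, which overlap (log2 difference -0.11 ± 0.13, adjusted p = 0.533).

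Pycard, whose product ASC joins sensors to caspase-1, had 49.9, 37.1 and 37.9 CPM in HDL and LPS libraries, against 60.0, 70.2 and 72.3 CPM in LPS only libraries. The groups did not overlap (log2 difference -0.70 ± 0.13, adjusted p = 0.000632). Gsdmd had 253, 215 and 228 CPM in HDL and LPS libraries, against 289, 274 and 295 CPM in LPS only libraries, a small fall without overlap (-0.30 ± 0.07, adjusted p = 0.0041).

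Nlrp3 and the caspases did not pass the test. Nlrp3 had 1310, 1330 and 1358 CPM in HDL and LPS libraries, against 1313, 1321 and 1268 CPM in LPS only libraries, a log2 difference of 0.03 ± 0.06 (adjusted p = 0.685). Casp1 had 644, 523 and 537 CPM in HDL and LPS libraries, against 703, 621 and 689.6 CPM in LPS only libraries, which overlap through 1 HDL library (-0.24 ± 0.10, adjusted p = 0.0819). Without that library, HDL and LPS replicate 1, Casp1 was called lower at -0.35 (adjusted p = 0.0157). Casp4 had 352, 292 and 313 CPM in HDL and LPS libraries, against 349, 316 and 339 CPM in LPS only libraries, which also overlap (-0.07 ± 0.08, adjusted p = 0.507).

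The authors' deposited table for this comparison lists 1609 genes, among them Pycard at a log2 fold change of -0.71, Naip5 at -0.78 and Naip6 at -0.77. Mefv and Gsdmd, called lower here, are not among the genes of that table used here. The calls here had no minimum fold, whereas that table may list only genes past one. Gsdmd lay at 0.813 of the LPS only level and Mefv at 0.298. Why they are missing was not tested, and their absence is not read as a disagreement.

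Cell type markers moved with rHDL too, in a comparison that called 36.5% of all genes, 18.4% lower. Macrophage markers summed to 9845 to 12193 CPM in HDL and LPS libraries, against 18580 to 20077 CPM in LPS only libraries. Of 8 tested, 6 fell, such as Lyz2 (-1.11 ± 0.13), while Cd68 rose (0.51 ± 0.07). Neutrophil markers summed to 3.24 to 5.15 CPM in HDL and LPS libraries, against 12.97 to 15.98 CPM in LPS only libraries. Both tested ones, S100a8 and Mmp8, fell, and S100a9, Mpo, Elane, Retnlg and Cxcr2 were at 0 in both groups. The part of either marker list in the falls of Mefv, Naip5, Naip6, Pycard and Gsdmd was not tested.

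**Figure D4:**
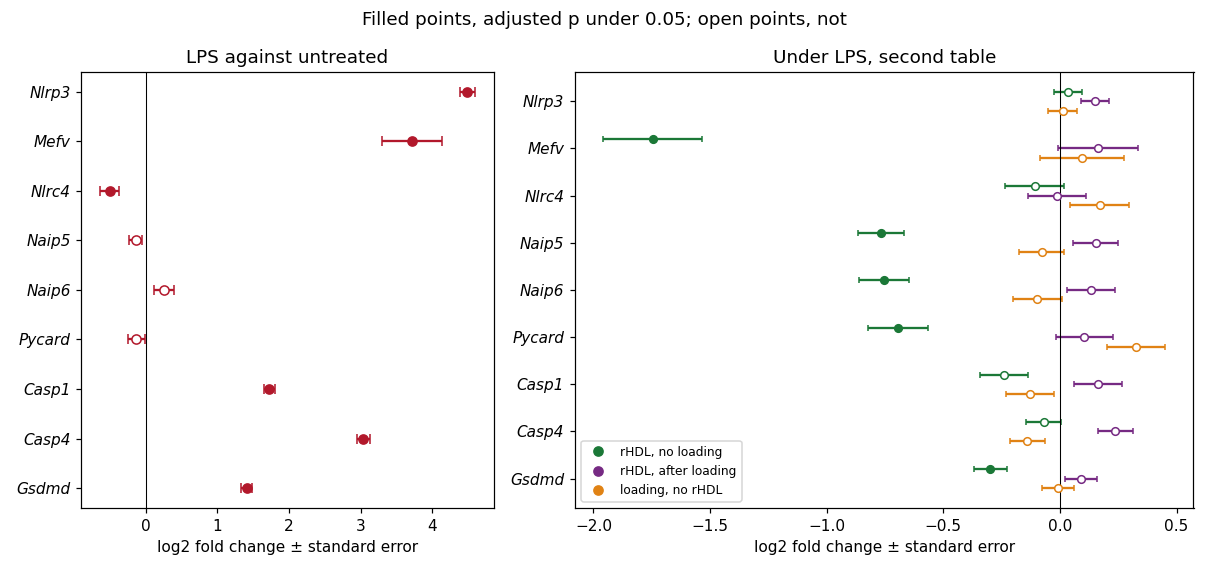
Log2 fold change with its standard error for 9 genes, with LPS against no treatment on the left. The right side holds cells all given LPS: rHDL without loading, rHDL after loading and loading without rHDL. Filled points have an adjusted p under 0.05. Mefv on the left passed the filter on low counts only through its LPS libraries, so its filled point there is not read as a result. Without loading Mefv lies at -1.75 and Naip5, Naip6 and Pycard between -0.77 and -0.70, and no gene has a filled point after loading.

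Partners on the lists split under rHDL, in a comparison that called 36.5% of all genes, 18.4% lower. Il1b had 8349, 7913 and 7596 CPM in HDL and LPS libraries, against 6294, 6835 and 6213 CPM in LPS only libraries, a rise (log2 difference 0.30 ± 0.08, adjusted p = 0.00624). Il18 had 44.1, 29.6 and 32.6 CPM in HDL and LPS libraries, against 68.4, 55.6 and 71.2 CPM in LPS only libraries, a fall (-0.87 ± 0.17, adjusted p = 0.000914). The 2 substrates of caspase-1 thus moved in opposite directions. Il1a rose with Il1b (0.64 ± 0.09, adjusted p = 0.000101), and Il18bp, a secreted trap for interleukin-18, fell with Il18 (-1.66 ± 0.25, adjusted p = 0.000106), as did Il1rn, on 13.4% of its exon bases.

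All 4 tested genes on the list of guanylate-binding proteins and Irgb10 fell, where 18.4% of all genes were called lower. Gbp5 had 3051 ± 172 CPM in HDL and LPS libraries and 4559 ± 469 CPM in LPS only libraries (SD, n = 3). Gbp3 lay at -0.99 ± 0.16 on 11.2% of its exon bases. All 3 tested other sensors fell, Aim2 by -0.92 ± 0.13, Nlrp1b by -1.04 ± 0.27 and Nlrp1a. The call of Nlrp1b was lost when the row with most counts stood for the gene (adjusted p = 0.053). Of 11 partners of NLRP3 and pyrin, Nek7, which binds NLRP3, and the channel gene Panx1 (0.86 ± 0.12) rose. Mark4 and Pstpip1 (-0.80 ± 0.10) fell. This is no more than the background, in which 36.5% of all genes were called. Among cell death effectors Fadd rose, Dfna5 rose with overlapping groups and 1 LPS only library under the filter's level, and Casp8 and Mlkl (-0.69 ± 0.14) fell. Of 2 tested inhibitors Trim30a fell (-0.74 ± 0.10).

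Liposomes, HDL and LPS was set against liposomes and LPS to ask whether rHDL acted likewise in cells loaded with cholesterol beforehand. No member passed the test, in a comparison where 1.02% of 8965 genes were called. At an unadjusted p under 0.05 there were 2 of 9 tested members, Casp4 and Nlrp3, and 1044 of all 8965 genes. DESeq2 called 0 members. By adjusted p, 38 of all genes were called higher and 53 lower, and 25 and 67 with library totals alone. With loading, the same pretreatment left each member within a narrow band, from -0.01 for Nlrc4 to 0.24 for Casp4 on the log2 scale, with a median of 0.15 among tested members and 7.44e-05 among all genes.

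The genes that fell with rHDL alone did not fall here. Mefv had 3.72, 3.60 and 3.83 CPM in liposomes, HDL and LPS libraries, against 3.51, 2.96 and 3.45 CPM in liposomes and LPS libraries (log2 difference 0.16 ± 0.17, adjusted p = 0.786). Naip5 had 39.0, 38.4 and 45.2 CPM with rHDL, against 38.8, 34.8 and 36.6 CPM without it (0.15 ± 0.10, adjusted p = 0.573). Naip6 had 14.7, 12.2 and 14.1 CPM with rHDL, against 13.1, 11.9 and 12.3 CPM without it (0.13 ± 0.10, adjusted p = 0.67). All 3 sensors had group means slightly above those of loaded cells without rHDL, and the groups of both Naip genes overlap.

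Pycard had 106, 78.2 and 89.1 CPM in liposomes, HDL and LPS libraries, against 85.8, 78.9 and 89.4 CPM in liposomes and LPS libraries (0.10 ± 0.12, adjusted p = 0.795). Gsdmd had 321, 290.2 and 296 CPM with rHDL, against 288, 275 and 288 CPM without it (0.09 ± 0.07, adjusted p = 0.675). The Gsdmd libraries did not overlap, as for 15.3% of all genes in this comparison. Casp1 had 796, 601 and 665 CPM with rHDL, against 642, 588 and 609.6 CPM without it (0.16 ± 0.10, adjusted p = 0.573).

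Casp4 and Nlrp3 had the smallest p-values. Casp4 had 379.6, 344 and 350.0 CPM in liposomes, HDL and LPS libraries, against 304, 311 and 295 CPM in liposomes and LPS libraries (0.24 ± 0.08, adjusted p = 0.185). Nlrp3 had 1376, 1439 and 1549 CPM with rHDL, against 1327, 1302 and 1303 CPM without it (0.15 ± 0.06, adjusted p = 0.325). For both genes every library with rHDL was above every library without, yet neither passed over all genes. Nlrc4 had 13.2, 18.6 and 14.9 CPM with rHDL, against 14.3, 17.03 and 15.8 CPM without it (-0.01 ± 0.12, adjusted p = 0.982). None of the members is among the 47 genes that the authors' deposited table gives for this comparison. That table too may list only genes past a minimum fold, and the largest fold among the members was 1.18, for Casp4. Their absence is therefore not read as agreement between the tests.

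No pathway gene passed the test after loading. Il1b had 7423, 6655 and 6220 CPM in liposomes, HDL and LPS libraries, against 5307, 5614 and 5725 CPM in liposomes and LPS libraries (0.29 ± 0.08, adjusted p = 0.112, and called by DESeq2 at adjusted p = 0.0162). Il18 had 95.0, 59.6 and 82.2 CPM with rHDL, against 65.8, 60.5 and 69.9 CPM without it (0.27 ± 0.16, adjusted p = 0.553). Macrophage markers summed to 15639 to 19367 CPM with rHDL and 17949 to 19486 CPM without it, and neutrophil markers to 6.13 to 8.75 CPM and 8.32 to 10.2 CPM in the same order.

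The difference between these rHDL effects was then tested itself, as the effect after loading minus the effect without loading. It was positive and called for Mefv, Naip5, Naip6, Pycard, Casp1, Gsdmd and Casp4, and not called for Nlrp3 and Nlrc4. Of 9 members 7 were called higher, in a test that called 30.2% of all genes, and 16.0% of all genes higher. The median was 0.40 among tested members, also without Mefv, and -0.03 among all genes. With library totals alone the calls over all genes split into 1016 higher and 2124 lower, against 1432 higher and 1272 lower, the median of all genes moved to -0.20, and 4 members were called (Mefv, Naip5, Naip6 and Pycard).

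The 4 members with the largest differences kept their calls under every scaling. Mefv differed by 1.91 ± 0.27 on the log2 scale (adjusted p = 0.00015), Naip5 by 0.92 ± 0.14 (adjusted p = 0.000211), Naip6 by 0.89 ± 0.15 (adjusted p = 0.000487) and Pycard by 0.80 ± 0.18 (adjusted p = 0.00357). Gsdmd differed by 0.39 ± 0.10 (adjusted p = 0.00903, and 0.0673 with library totals). The caspases were at the margin. Casp1 differed by 0.40 ± 0.14 (adjusted p = 0.0481), a call lost in 11 of 20 alternatives. Casp4 differed by 0.31 ± 0.11 (adjusted p = 0.0422), a call lost in 12 of 20. Leaving out any library other than LPS only replicate 2, HDL and LPS replicate 1 or liposomes, HDL and LPS replicate 2 ended either caspase's call, with adjusted p up to 0.114 for Casp1 and 0.11 for Casp4. Nlrp3 differed by 0.12 ± 0.09 (adjusted p = 0.344) and Nlrc4 by 0.10 ± 0.18 (adjusted p = 0.724), and both were negative with library totals.

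Among pathway genes the tested difference was called for some, in a test that called 30.2% of all genes, 16.0% higher. Of 5 cytokines and antagonists Il18 (1.14 ± 0.23, adjusted p = 0.00201), Il18bp (1.999 ± 0.34) and Il1rn (1.22 ± 0.21) were called higher, and Il1b gave -0.02 ± 0.11 (adjusted p = 0.929). All 4 tested genes on the list of guanylate-binding proteins and Irgb10 were called higher, Gbp5 by 0.74 ± 0.13 and Gbp3 by 0.92 ± 0.23. Aim2 (0.87 ± 0.18) and Nlrp1b (1.16 ± 0.38) were called among 3 other sensors, though Nlrp1b was not in 7 of the 12 fits without a library. Among 11 NLRP3 and pyrin partners Pstpip1 was higher (0.78 ± 0.14) and Panx1 lower (-1.03 ± 0.17). Among cell death effectors Mlkl (0.87 ± 0.20) was higher and Dfna5 lower, and both inhibitors, Trim30a (0.89 ± 0.14) and Cflar (0.97 ± 0.27), were higher. Of 8 macrophage markers 5 were called higher, such as Lyz2 (0.94 ± 0.18), and Cd68 lower, and both neutrophil markers tested were higher. Their part in the members' differences was not tested.

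Seen from the side of loading, liposomes, HDL and LPS was set against HDL and LPS. This comparison shares its 2 groups with those above, and its values are given side by side with them. Of 9 members 6 were higher, where 35.6% of all genes were called and 18.5% were higher, with a median of 0.38 among tested members and -0.01 among all genes. With library totals alone 1304 genes were called higher and 2009 lower, against 1659 higher and 1537 lower. Mefv had 3.60 to 3.83 CPM in liposomes, HDL and LPS libraries, against 0.696 to 1.07 CPM in HDL and LPS libraries, 4.01-fold higher (log2 difference 2.004 ± 0.20, adjusted p = 3.08e-06). Pycard had 78.2 to 106 CPM, against 37.1 to 49.9 CPM in HDL and LPS libraries, 2.18-fold higher (1.13 ± 0.13, adjusted p = 8.05e-06). Both genes' groups lay fully apart, as did those of 43.1% of all genes. Without Mefv, which was under the filter's level in 1 HDL and LPS library, 5 of 8 members were higher, with a median of 0.33.

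The NAIP genes moved again as a pair, with Naip5 at 0.84 ± 0.10 (adjusted p = 1.15e-05) and Naip6 at 0.79 ± 0.10 (adjusted p = 4.11e-05). Gsdmd was higher by 0.38 ± 0.07 (adjusted p = 0.000701). Casp1 was called at 0.27 ± 0.10 (adjusted p = 0.0497) with overlapping libraries, 601 to 796 CPM in liposomes, HDL and LPS libraries against 523 to 644 CPM in HDL and LPS libraries. That call was lost in 7 of 15 alternatives, among them the fits without HDL and LPS replicate 2 or 3 and without liposomes, HDL and LPS replicate 1 or 3 (adjusted p up to 0.218). Not called were Casp4 (0.17 ± 0.07, adjusted p = 0.102), Nlrc4 (0.27 ± 0.12, adjusted p = 0.108) and Nlrp3 (0.13 ± 0.06, adjusted p = 0.12). With the replicate number as a block, which pairs these libraries, Casp4 (adjusted p = 0.0242) and Nlrc4 (adjusted p = 0.0373) were called as well. Nlrp3 and Nlrc4 were called without liposomes, HDL and LPS replicate 1 (adjusted p = 0.0433 and 0.0281), and Casp4 without HDL and LPS replicate 1 (adjusted p = 0.0147). Il18 was higher by 1.15 ± 0.17 and Il1b lower by -0.23 ± 0.08 (adjusted p = 0.0277, a call lost without HDL and LPS replicate 1 or 2 or without liposomes, HDL and LPS replicate 2 or 3, with adjusted p up to 0.136). Of 8 macrophage markers 6 were higher and Cd68 and Cd14 lower, where 35.6% of all genes were called, 18.5% higher.

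Loading without rHDL, liposomes and LPS against LPS only, called no member, where 8.57% of 8965 genes were called. At an unadjusted p under 0.05 there was 1 of 9 tested members, Pycard, and 2128 of all 8965 genes. The median was -0.01 among tested members and 0.01 among all genes. With library totals alone 626 genes were called higher and 254 lower, against 358 higher and 410 lower.

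Pycard had 85.8, 78.9 and 89.4 CPM in liposomes and LPS libraries, against 60.0, 70.2 and 72.3 CPM in LPS only libraries, without overlap, as for 32.9% of all genes (0.33 ± 0.12, adjusted p = 0.127). It passed under 4 of 15 alternatives: library totals (adjusted p = 0.0392), no filter on low counts (0.0475), the replicate block (0.0401) and the pair of groups fitted alone (0.0198). Casp4 had 304, 311 and 295 CPM in liposomes and LPS libraries, against 349, 316 and 339 CPM in LPS only libraries, also without overlap (-0.14 ± 0.08, adjusted p = 0.278). The other members lay between -0.13 for Casp1 and 0.17 for Nlrc4, with Nlrp3 at 0.01 ± 0.06 and Mefv at 0.09 ± 0.18. Of the cytokine genes Il1a fell by 0.66 on the log2 scale (SE 0.09, adjusted p = 0.000664) and Il1rn by 0.88 (SE 0.15, adjusted p = 0.00232). Il1b (-0.22 ± 0.08, adjusted p = 0.0981) and Il18 (0.01 ± 0.16, adjusted p = 0.983) did not pass. Panx1 (0.50 ± 0.13, adjusted p = 0.0263) and Dfna5 (1.31 ± 0.38, adjusted p = 0.0487) rose, and Ripk1, a kinase of cell death signalling, fell (-0.33 ± 0.06, adjusted p = 0.00326). Panx1 lost its call without LPS only replicate 1 or 3 or without liposomes and LPS replicate 2 or 3, with adjusted p up to 0.115. Dfna5, with 1 LPS only library under the filter's level, lost its call without any library other than LPS only replicate 1, with adjusted p up to 0.163 and a log2 difference down to 0.88, and with DESeq2 size factors (adjusted p = 0.0527).

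Across the 12 libraries of the second table the members' log2 CPM varied together to different degrees, given here as a description, since the 12 share their groups and scaling. Naip5 and Naip6 were most alike (Pearson's r = 0.97), then Mefv and Naip6 (0.96), Gsdmd and Mefv (0.94) and Pycard and Gsdmd (0.94). Casp1 was most like Gsdmd (0.84) and Casp4 most like Casp1 (0.78). Nlrc4 and Nlrp3 stood apart: the member most like Nlrc4 was Mefv (0.51), and the member most like Nlrp3 was Casp4 (0.36). Among all 8965 genes tested those most like Nlrp3 were Psd (0.87), Gtpbp8 (0.87) and Lyl1 (0.86).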

How the data were processed

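Per the submitters' processing notes, the authors used cutadapt, HISAT2, featureCounts of Subread and DESeq2 with build mm10, whose versions the sources used here do not give. Per the labels' protocols, RNA was selected by poly-dT. The authors deposited raw read counts per transcript row (32850 rows). For each listed gene, the tables of comparisons that the authors deposited give p-values, a log2 fold change and a ratio of RPKM values.

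Rows were summed per symbol. Genes kept by filterByExpr (minimum count 10; 9576 and 8965 genes in the 2 tables) were tested in edgeR 4.0.16 (R 4.3.3) with TMM scaling and quasi-likelihood F tests, each table fitted apart and the 4 groups of the second together. CPM values are scaled by TMM. A call is a Benjamini-Hochberg adjusted p under 0.05 over all genes tested. A value after ± is the standard error of a log2 difference or the SD of a CPM, with n = 3. The tests were tried on simulated data. Correlations use log2 CPM with a prior count of 2. Per-library depths are 9464916 to 16835472 counts, which limits precision for Mefv, Naip2 and other genes with few counts.

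The members and lists were chosen with earlier results of these data known. All 10 members are named. From each list and comparison up to 2 called genes with the smallest p are named, with Il1b and Il18 always; further members of a list are named to spell out a count, chosen after their values were seen. Some results on cell death effectors, counts over that list among them, are not reported here. No 2 libraries of a group were alike within sampling noise (lowest chi-square per degree of freedom 3.01). Equal replicate numbers were taken to pair libraries only for liposomes, HDL and LPS with HDL and LPS, where the 3 correlations of deviations from group means were 0.18 to 0.44. Alternatives were DESeq2 1.42.0 (as test and as size factors), library totals, no filter on low counts, a minimum of 30 counts, a minimum fold of 1.5, the replicate block, 2 groups fitted alone, the row with most counts, and leaving out each library.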

Additional observations from a re-analysis of the deposited data

Results flagged for a closer look

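The effect of rHDL after cholesterol loading differed from its effect without loading, by a test of the difference itself, for 7 of the 9 tested inflammasome genes. Mefv stood at 0.16 after loading and -1.75 without it, a difference of 1.91 on the log2 scale, which rests on few counts. Naip5 stood at 0.15 and -0.77 (difference 0.92), and Naip6 at 0.13 and -0.75 (difference 0.89), on sequence the genes partly share. Pycard stood at 0.10 and -0.70 (difference 0.80). Gsdmd stood at 0.09 and -0.30 (difference 0.39). Casp1 stood at 0.16 and -0.24 (difference 0.40), and Casp4 at 0.24 and -0.07 (difference 0.31), and neither caspase had a called rHDL effect under loading or without it. The same test called 30.2% of all genes, and 16.0% of all genes higher. Without Mefv 6 of 8 tested members were called higher. With library totals alone 4 members were called, and Gsdmd and both caspases were not. The call of Casp1 was lost in 11 of 20 alternatives and that of Casp4 in 12 of 20.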

How the results depend on the processing

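Of the members' calls, those of Mefv, Naip5, Naip6 and Pycard under rHDL and in the difference between rHDL effects were kept under all alternatives except a minimum fold of 1.5, where Mefv alone kept both. With that minimum, Nlrp3, Casp4, Casp1 and Gsdmd kept their calls for LPS, and Nlrc4 lost its call. Mefv is left out for LPS, since it passed the filter on low counts only through its LPS libraries. Called members were 1 for rHDL, 3 for liposomes, HDL and LPS against HDL and LPS, and 1 for the difference. Called genes were 4044 for LPS, 658 for rHDL, 5 for rHDL after loading and 32 for loading. They were 681 for liposomes, HDL and LPS against HDL and LPS, and 592 for the difference. Library totals left 4 members called for the difference. For loading, 1 member was called with library totals, with no filter on low counts and with the 2 groups alone. For rHDL after loading, 176 genes were called with no filter on low counts, 161 by DESeq2 and 42 with the 2 groups alone, against 91. For loading, the 2 groups alone called 1216 genes, against 768. Where the replicate number does not pair libraries by the check used, the replicate block called 1 member and 486 genes for rHDL after loading, and 1 member and 1651 genes for loading; it also called Casp1 for rHDL (adjusted p = 0.00249). For liposomes, HDL and LPS against HDL and LPS, where the number pairs libraries, the block changed no member call other than those of Casp4 and Nlrc4. Every library of the loading comparison was most alike to the library with its own number (6 of 6, against 4 of 6 for either rHDL comparison and 1 of 6 for LPS), a hint from the data and not the design. Leaving out each library gave 30 to 123 genes for rHDL after loading and 350 to 594 for loading. The cause of these changes was not tested.

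Signs turned for values at or near 0, none of them called except Naip6 under LPS with library totals (-0.46). With library totals, Nlrc4 (0.0074) and Casp4 (0.046) turned for rHDL, Gsdmd (0.071) and Naip5 (0.00014) for loading, and Nlrp3 (-0.056) and Nlrc4 (-0.072) for the difference. DESeq2 size factors and DESeq2 gave Nlrp3 -0.000295 and -0.000297 and Il18 -0.00218 and -0.00422 for loading, and Il1b 0.00371 and 0.00372 for the difference. Mefv gave -0.070 for loading with the row with most counts. With a library left out, the ranges that held a turned sign were -0.22 to 0.0090 for Pycard under LPS; -0.15 to 0.096 for Nlrc4 and -0.014 to 0.20 for Pycard under rHDL after loading; -0.0067 to 0.019 for Nlrp3, -0.042 to 0.015 for Gsdmd, -0.18 to 0.0060 for Naip5 and -0.098 to 0.079 for Il18 under loading; and -0.038 to 0.20 for Nlrc4 and -0.085 to 0.050 for Il1b in the difference. Naip2 could not be tested in any fit with the filter, and members with few counts (Mefv, Naip6, Nlrc4) are limited by depth.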
